A study of Mus musculus with 13 samples.

Results

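The 10 genes described here make nitric oxide, supply or consume its substrate arginine, or make its cofactor tetrahydrobiopterin. They were chosen by name, as Nos2, the arginases Arg1 and Arg2, the arginine importer Slc7a2, the arginine-recycling enzymes Ass1 and Asl, and the cofactor enzymes Gch1, Pts, Spr and Qdpr. All 10 were found among the 24445 gene symbols of the count table, and all 10 passed the filter on low counts. The cells were bone marrow-derived macrophages (BMDMs) from female mice, grown in L929-conditioned medium and stimulated with lipopolysaccharide (LPS), the cell wall component of Gram-negative bacteria. Control BMDMs carried floxed Acly (Acly fl/fl), and AclyM-KO BMDMs carried the same alleles with Cre driven by the myeloid LysM promoter (Lyz2-Cre), which removes 1 exon of the ATP citrate lyase gene. RNA was sequenced after 3 h of LPS in 3 control and 3 AclyM-KO libraries, and after 24 h of LPS in 4 control and 3 AclyM-KO libraries. The ages of the mice were not given in the sources used here, no label says whether libraries came from separate animals, and unstimulated libraries were not analysed here.

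Inducible nitric oxide synthase, encoded by Nos2, turns arginine into nitric oxide and citrulline, and is the enzyme by which LPS-activated mouse macrophages make large amounts of nitric oxide. Arginine enters the cell through cationic amino acid transporters such as the Slc7a2 product, citrulline is turned back into arginine by argininosuccinate synthase (Ass1) and argininosuccinate lyase (Asl), and arginases divert arginine to urea and ornithine. The synthase needs tetrahydrobiopterin, which is made from GTP by GTP cyclohydrolase 1 (Gch1, the rate-limiting step), 6-pyruvoyl-tetrahydropterin synthase (Pts) and sepiapterin reductase (Spr). Dihydropteridine reductase (Qdpr) regenerates it from its oxidised form.

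On the GRCm38 assembly, Nos2 lies on the plus strand at chr11:78920787-78960254, Arg2 at chr12:79130777-79156301, Ass1 at chr2:31470207-31520672 and Slc7a2 at chr8:40862396-40922308, also on the plus strand. On the minus strand lie Arg1 at chr10:24915221-24927484, Asl at chr5:130011258-130029247, Gch1 at chr14:47153895-47189413, Pts at chr9:50521617-50528724, Spr at chr6:85130176-85137766 and Qdpr at chr5:45434021-45450236. Exons of Arg2 overlap exons of Vti1b on the opposite strand over 285 bases and of Gm48780 over 116 bases, exons of Slc7a2 overlap the lincRNA Gm26584 over 635 bases, and exons of Qdpr overlap the antisense gene Gm42413 over 332 bases. Whether the counting used strand is not given in the sources used here, so reads of these pairs may be mixed.

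The sequences just upstream of Gch1 and Qdpr are shown because these cofactor genes, which start and sustain tetrahydrobiopterin supply, fell between 3 h and 24 h of LPS in both genotypes. Each is the 242 bases from 250 to 9 bases before the gene's start in RefSeq's GRCm38.p6 annotation, on the minus strand, at chr14:47189422-47189663 for Gch1 and chr5:45450238-45450479 for Qdpr. Capitals mark exact matches, on either strand, to 1 of 6 motifs searched.
Gch1: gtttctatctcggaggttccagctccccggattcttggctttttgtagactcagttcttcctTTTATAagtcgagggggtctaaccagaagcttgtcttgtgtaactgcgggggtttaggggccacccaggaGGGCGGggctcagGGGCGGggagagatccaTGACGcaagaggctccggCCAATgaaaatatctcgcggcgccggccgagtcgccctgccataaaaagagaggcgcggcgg
Qdpr: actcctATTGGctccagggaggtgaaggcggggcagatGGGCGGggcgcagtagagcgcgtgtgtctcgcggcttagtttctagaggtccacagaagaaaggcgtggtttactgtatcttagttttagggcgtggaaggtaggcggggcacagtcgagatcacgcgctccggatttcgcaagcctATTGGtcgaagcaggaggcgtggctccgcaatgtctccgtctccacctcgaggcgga

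The motifs were the GC box (GGGCGG, in 31.6% of 32851 such windows upstream of RefSeq genes), the CCAAT box (CCAAT, in 33.2%), the E box (CACGTG, in 5.76%), the core of the cyclic AMP response element (TGACG, in 5595 windows, or 17%), the TATA box (TATAAA, in 12.1%) and the kappa B consensus (in 7.0%). The Gch1 window held 2 GC boxes, 1 CCAAT box, 1 cyclic AMP response element core and 1 TATA box, the last on the reverse strand. The Qdpr window held 1 GC box and 2 CCAAT boxes, both on the reverse strand. No match overlapped another in these windows, and neither window held the letters of the E box or the kappa B consensus. Their GC contents were 58.3% and 59.5%, against a median of 52.1% over all windows. A match of letters is a description and not a bound site.

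The 12 libraries tested held 21274102 to 59577343 counts each. The library control 24 h replicate 1 held 34467 counts and was left out. When it was kept, no gene among the 10 gained or lost the call of changed, or the interaction call, in 50 of 50 tests, and calls on the adjusted p alone that it turned are given with the gene. Acly fell in AclyM-KO libraries at both times, with a log2 fold change of -1.34 ± 0.06 (SE) at 3 h and -1.88 ± 0.06 at 24 h, and its count covers the whole transcript, of which only 1 exon is deleted. The summed level of 7 macrophage markers was 9083 to 9202 CPM (counts scaled by library size) in control and 6140 to 7011 CPM in AclyM-KO libraries at 3 h, and 5937 to 6232 CPM and 4428 to 4530 CPM at 24 h. The lower sums lay in Lyz2, the gene whose promoter drives Cre, which fell by 0.97 on the log2 scale at 3 h and fell by 1.40 at 24 h. The other 6 macrophage markers summed to 3816 to 3981 CPM in control and 3867 to 4067 CPM in AclyM-KO libraries at 3 h, and to 3545 to 3711 CPM and 3484 to 3670 CPM at 24 h, so the genotypes overlapped. Of these 6, Adgre1 passed the test given below as higher at 3 h (log2 fold change 0.24), Fcgr1 as lower at 3 h (-0.26) and Mertk as lower at both times (-0.31 and -0.33), and Csf1r, Cd68 and Itgam passed at neither time. The 7 neutrophil markers summed to 11.02 to 13.6 CPM at 3 h and 3.12 to 4.25 CPM at 24 h with Ly6g at 0, and B cell, T cell and fibroblast markers summed to at most 1.201 CPM. The summed level of the 5 dendritic cell markers was near 0 but higher in every AclyM-KO than in every control library of the same time. It was 1.39 to 1.87 CPM in control and 1.92 to 2.69 CPM in AclyM-KO at 3 h, and 0.275 to 0.426 CPM and 0.442 to 0.576 CPM at 24 h. Among all genes tested, 15.3% at 3 h and 18.2% at 24 h were likewise higher in every AclyM-KO library. Xcr1, the only 1 of these markers that passed the filter on low counts, did not pass the same test (adjusted p = 0.337 and 0.293). Cd209a at 3 h and Siglech at 24 h had lower means in AclyM-KO. The part of these differences in the results below was not tested. In bulk RNA, a change in the share of cells expressing a gene and a change in RNA per cell cannot be told apart.

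Levels are given below in CPM after TMM scaling, differences as log2 fold changes from edgeR's quasi-likelihood test with their standard error (SE), and p-values with Benjamini-Hochberg adjustment across the 19621 transcripts in the fit. A gene passed the test at an adjusted p under 0.05, and was called changed where its log2 fold change was also beyond 0.75 in either direction. The p-values measure the spread between these libraries, which may be technical.

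Nos2 was the most abundant of the 10 genes per transcript length, and the only 1 of them called changed between genotypes. After 3 h of LPS its level was 242, 215 and 234 CPM in the control libraries and 308, 325 and 303 CPM in the AclyM-KO libraries. After 24 h it was 291, 311 and 287 CPM in control and 589, 539 and 538 CPM in AclyM-KO. At both times every AclyM-KO library lay above every control library, and the AclyM-KO libraries at 24 h stood apart from all others. Nos2 was higher in AclyM-KO by a log2 fold change of 0.44 ± 0.05 at 3 h (1.35-fold, adjusted p = 6.78e-07) and by 0.91 ± 0.05 at 24 h (1.88-fold, adjusted p = 2.03e-13). The genotype effect itself was larger at 24 h, by 0.47 ± 0.07 on the log2 scale (interaction of genotype and time, adjusted p = 8.31e-05). Between 3 h and 24 h Nos2 rose by 0.36 ± 0.05 on the log2 scale in control and by 0.83 ± 0.05 in AclyM-KO BMDMs (adjusted p = 4.04e-07 and 5.63e-15). The transcripts of the related synthases Nos1 and Nos3 held 14 and 36 counts over all libraries and were not tested.

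**Figure D1:**
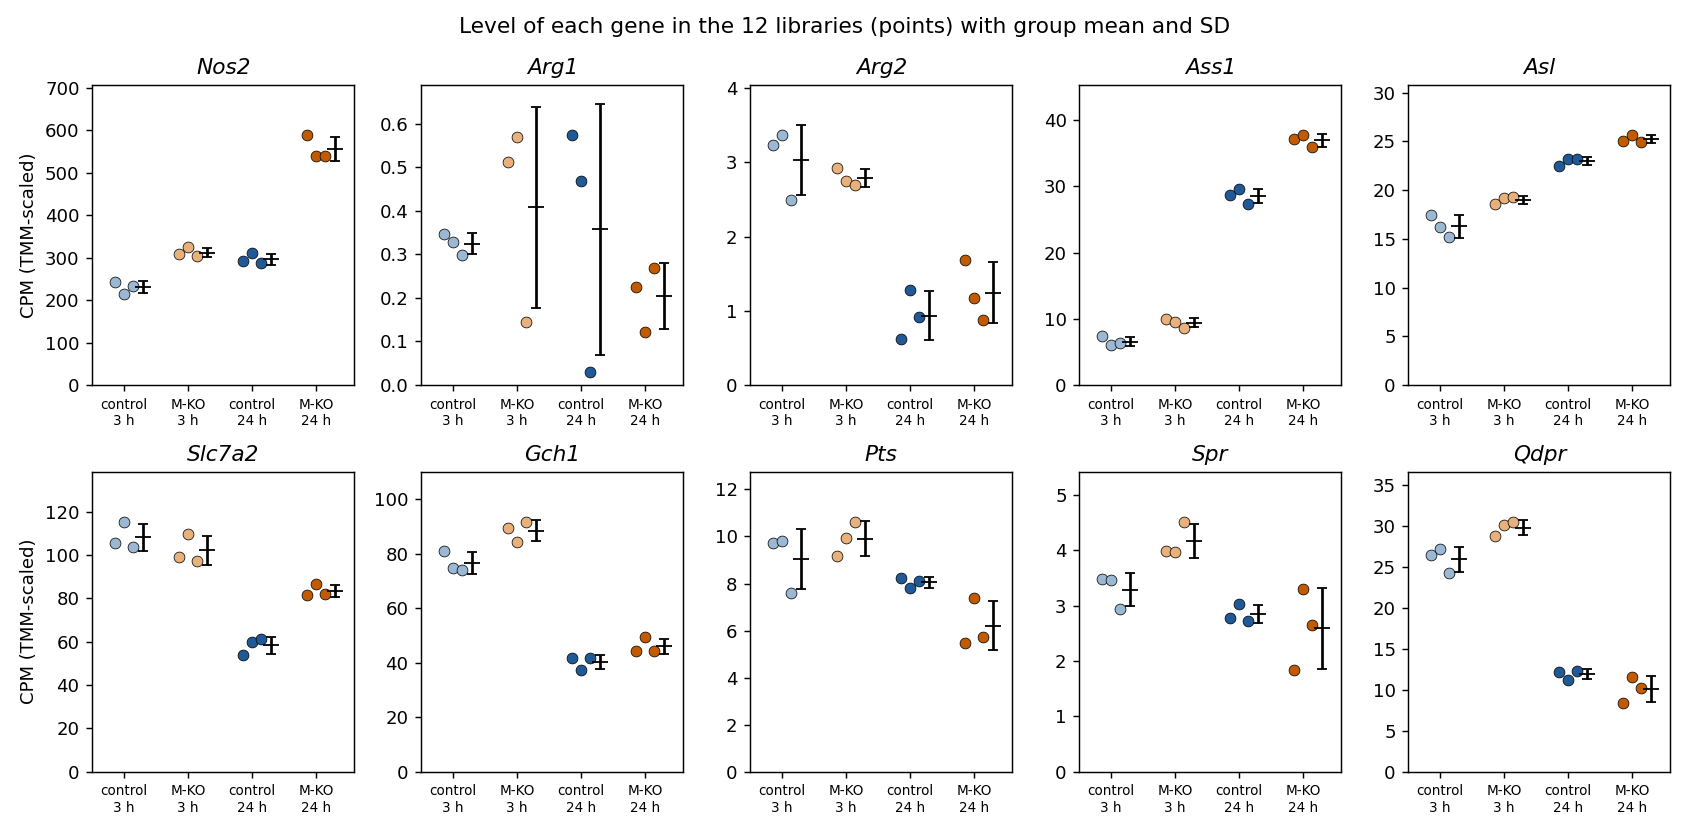
Level of each of the 10 genes in CPM after TMM scaling, with 1 point per library and the mean and SD of each group of 3 beside the points; each panel has its own axis starting at 0. Nos2 stands at 538 to 589 CPM in AclyM-KO after 24 h of LPS, against 287 to 311 CPM in control.

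Slc7a2, which encodes the cationic amino acid transporter CAT2, differed between genotypes at 24 h and not detectably at 3 h. At 3 h its level was 106, 115 and 104 CPM in control and 99.2, 110 and 97.2 CPM in AclyM-KO libraries. At 24 h it was 53.8, 59.9 and 61.0 CPM in control and 81.7, 86.4 and 82.0 CPM in AclyM-KO. The groups overlapped at 3 h and lay apart at 24 h. The log2 fold change was -0.08 at 3 h, with a 95% interval from -0.21 to 0.04 (adjusted p = 0.389), and 0.51 ± 0.06 at 24 h (1.43-fold, adjusted p = 3.76e-07). The genotype effects at the 2 times differed by 0.60 ± 0.08 on the log2 scale (adjusted p = 1.55e-05). In control BMDMs Slc7a2 fell by 0.89 on the log2 scale from 3 h to 24 h (SE 0.06, adjusted p = 2.51e-14), while in AclyM-KO BMDMs it fell by 0.29 (SE 0.06, adjusted p = 6.33e-05), but its log2 fold change there was -0.05 (adjusted p = 0.472) when libraries were scaled by total counts alone. Both Nos2 and Slc7a2 thus had larger genotype effects at 24 h, and for each gene that difference passed the test in 19 of 19 alternative fits.

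Ass1 and Asl, which return citrulline to arginine, rose with time in both genotypes. Ass1, the argininosuccinate synthase gene, stood at 7.35, 6.04 and 6.28 CPM in control and 9.94, 9.58 and 8.65 CPM in AclyM-KO libraries at 3 h. At 24 h it stood at 28.7, 29.5 and 27.4 CPM in control and 37.2, 37.8 and 35.9 CPM in AclyM-KO libraries. All AclyM-KO libraries were above all control libraries of the same time, and all 24 h libraries were above all 3 h libraries. Ass1 was higher in AclyM-KO by 0.52 ± 0.10 on the log2 scale at 3 h (1.43-fold, adjusted p = 6.32e-04) and by 0.38 ± 0.07 at 24 h (1.30-fold, adjusted p = 2.90e-04), and these effects passed the test in 20 of 20 alternative fits at each time. The difference between them, -0.14 ± 0.12, did not pass the test (adjusted p = 0.539). From 3 h to 24 h Ass1 rose 4.34-fold in control (log2 fold change 2.12 ± 0.09) and 3.93-fold in AclyM-KO BMDMs (1.98 ± 0.08), the largest rise among the 10 genes in either genotype.

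Asl, the argininosuccinate lyase gene, stood at 17.5, 16.2 and 15.2 CPM in control and 18.5, 19.2 and 19.3 CPM in AclyM-KO libraries at 3 h, and at 22.5, 23.2 and 23.2 CPM and 25.04, 25.7 and 24.9 CPM at 24 h. The genotypes did not overlap at either time, but the differences were small. The log2 fold change was 0.22 ± 0.08 at 3 h (adjusted p = 0.0495) and 0.13 ± 0.07 at 24 h (adjusted p = 0.212, 95% interval -0.01 to 0.28). The call at 3 h was lost in 10 of the 12 fits that left out 1 library, with adjusted p from 0.035 to 0.203 over the 12. It was also lost with all 13 libraries (adjusted p = 0.0731) and with DESeq2 (adjusted p = 0.059), and it held in only 5 of 20 alternative fits. Asl rose with time by 0.50 ± 0.07 in control and 0.41 ± 0.07 in AclyM-KO BMDMs on the log2 scale (adjusted p = 5.30e-07 and 9.82e-06).

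The arginase genes were low in all libraries, and neither differed between genotypes by the test. Arg1, the arginase that marks alternatively activated mouse macrophages, held 2 to 14 counts per library. Its level was 0.348, 0.328 and 0.299 CPM in control and 0.512, 0.569 and 0.144 CPM in AclyM-KO libraries at 3 h, and 0.574, 0.469 and 0.0305 CPM and 0.225, 0.121 and 0.269 CPM at 24 h. The groups overlapped at both times, and the 95% intervals of the log2 fold change ran from -1.20 to 1.87 at 3 h and from -1.96 to 1.27 at 24 h, so only large differences could have been detected at this depth. Arg2, the mitochondrial arginase, stood at 3.23, 3.37 and 2.49 CPM in control and 2.92, 2.76 and 2.69 CPM in AclyM-KO at 3 h, and at 0.615, 1.28 and 0.916 CPM and 1.69, 1.17 and 0.883 CPM at 24 h. The genotypes overlapped at both times, with log2 fold changes of -0.12 at 3 h (95% interval -0.56 to 0.32) and 0.43 at 24 h (-0.11 to 0.96). Arg2 fell from 3 h to 24 h by 1.70 on the log2 scale in control (SE 0.24, adjusted p = 1.47e-07) and by 1.15 in AclyM-KO BMDMs (SE 0.24, adjusted p = 6.98e-05).

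**Figure D2:**
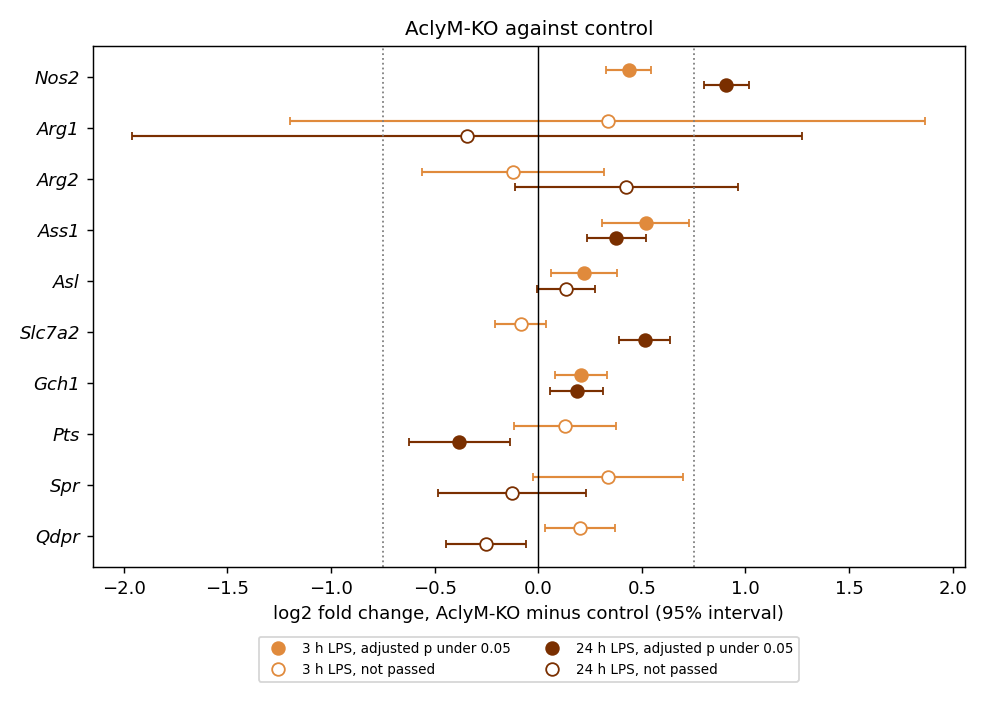
Log2 fold change of AclyM-KO against control for each gene at 3 h (light) and 24 h (dark) of LPS, with bars for the 95% interval, filled points for an adjusted p under 0.05 and dotted lines at a log2 fold change of 0.75 in either direction. Nos2 at 24 h is the only point beyond a dotted line with an adjusted p under 0.05, at 0.91, and Arg1 has the widest intervals.

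Gch1, whose product commits GTP to tetrahydrobiopterin, was slightly higher in AclyM-KO BMDMs at both times. Its level was 81.1, 74.8 and 73.9 CPM in control and 89.3, 84.4 and 91.8 CPM in AclyM-KO libraries at 3 h, and 41.8, 37.5 and 41.8 CPM and 44.5, 49.3 and 44.3 CPM at 24 h. The genotypes did not overlap at either time. The log2 fold change was 0.21 ± 0.06 at 3 h (1.16-fold, adjusted p = 0.0188) and 0.19 ± 0.06 at 24 h (1.14-fold, adjusted p = 0.0452). The call at 3 h was lost without AclyM-KO 3 h replicate 3 (adjusted p = 0.0984), control 3 h replicate 2 (0.0714) or control 3 h replicate 3 (0.0864). That at 24 h was lost in 10 of the 12 fits that left out 1 library (0.0307 to 0.246 over the 12) and with all 13 libraries (0.0653). The 24 h effect passed in only 4 of 20 alternative fits, and not with DESeq2 (adjusted p = 0.0529). Gch1 fell from 3 h to 24 h by 0.92 on the log2 scale in control (SE 0.06) and by 0.94 in AclyM-KO BMDMs (SE 0.06), with adjusted p = 2.22e-14 and 1.21e-14.

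Pts, the second enzyme of the pathway, stood at 9.73, 9.83 and 7.58 CPM in control and 9.17, 9.93 and 10.6 CPM in AclyM-KO libraries at 3 h. At 24 h it stood at 8.24, 7.80 and 8.11 CPM in control and 5.48, 7.40 and 5.72 CPM in AclyM-KO libraries, where every AclyM-KO library was below every control library. It was the only 1 of the 10 genes that was lower in AclyM-KO by the test, with a log2 fold change of -0.38 ± 0.12 at 24 h (adjusted p = 0.0289). This call was lost without AclyM-KO 24 h replicate 1 (adjusted p = 0.175), AclyM-KO 24 h replicate 3 (0.137), control 24 h replicate 2 (0.0775) or control 24 h replicate 4 (0.096). The difference between the effects at the 2 times was -0.51 ± 0.17 (adjusted p = 0.0509), and it was under 0.05 in 8 of 19 alternative fits, among them those without AclyM-KO 24 h replicate 2 (0.0165), AclyM-KO 3 h replicate 1 (0.0203) or 2 (0.0454), or control 3 h replicate 2 (0.0432). With time Pts fell by 0.68 on the log2 scale in AclyM-KO BMDMs (SE 0.12, adjusted p = 1.06e-05), and its log2 fold change in control was -0.17 ± 0.12 (adjusted p = 0.193).

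Spr, which catalyses the last step of tetrahydrobiopterin synthesis, held 49 to 178 counts per library. It stood at 3.48, 3.46 and 2.94 CPM in control and 4.00, 3.98 and 4.52 CPM in AclyM-KO libraries at 3 h, and at 2.79, 3.03 and 2.72 CPM and 1.84, 3.30 and 2.65 CPM at 24 h. The genotypes lay apart at 3 h and overlapped at 24 h, and neither log2 fold change passed the test (0.34 ± 0.18, adjusted p = 0.218, and -0.13 ± 0.18, adjusted p = 0.695). Spr fell with time in AclyM-KO BMDMs by 0.69 on the log2 scale (SE 0.18, adjusted p = 8.83e-04), and its log2 fold change in control was -0.22 ± 0.18 (adjusted p = 0.246).

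Qdpr, the recycling reductase, stood at 26.4, 27.1 and 24.2 CPM in control and 28.8, 30.1 and 30.5 CPM in AclyM-KO libraries at 3 h, and at 12.2, 11.2 and 12.3 CPM and 8.41, 11.6 and 10.2 CPM at 24 h. AclyM-KO libraries were all higher at 3 h, while at 24 h the 2 genotypes overlapped. The log2 fold changes of 0.20 ± 0.08 at 3 h (adjusted p = 0.107) and -0.25 ± 0.09 at 24 h (adjusted p = 0.0767) did not pass the test, but the difference between them, -0.45 ± 0.13, did (adjusted p = 0.0202). That difference did not pass without AclyM-KO 24 h replicate 1 (adjusted p = 0.0981), AclyM-KO 3 h replicate 3 (0.0528), control 24 h replicate 4 (0.0632) or control 3 h replicate 3 (0.0549). The effect at 24 h itself passed without AclyM-KO 24 h replicate 2 (adjusted p = 0.0187) and without AclyM-KO 3 h replicate 1 (0.0454) or 2 (0.0399). Among the cofactor genes, Qdpr fell most with time. It fell by 1.12 on the log2 scale in control (SE 0.09) and fell by 1.57 in AclyM-KO BMDMs (SE 0.09), with adjusted p = 8.47e-13 and 5.18e-16.

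**Figure D3:**
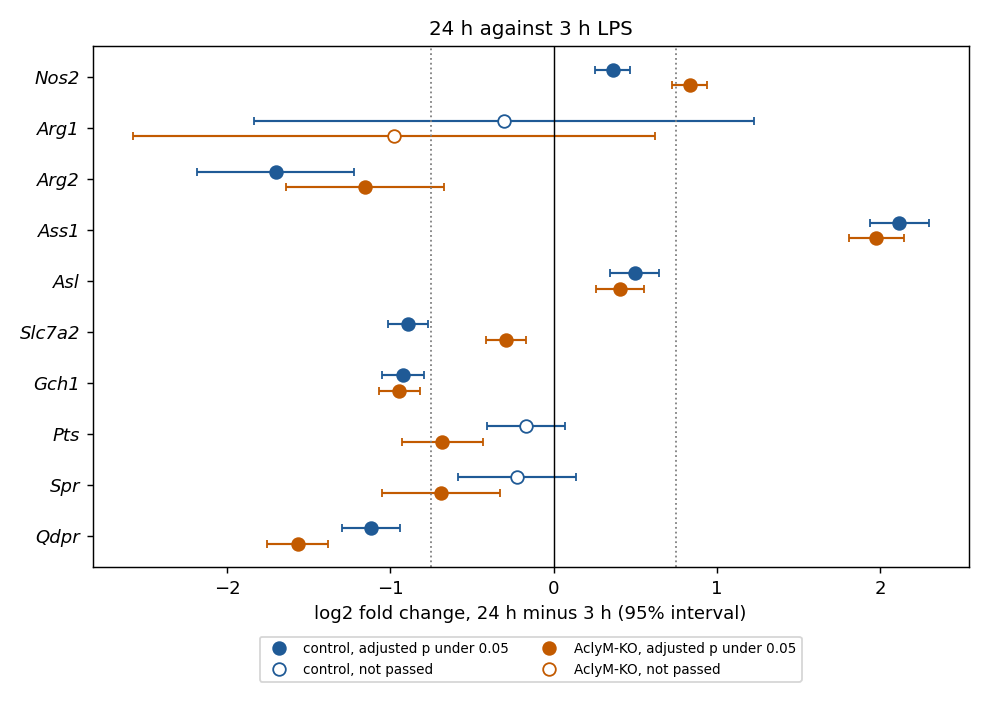
Log2 fold change from 3 h to 24 h of LPS for each gene in control (blue) and AclyM-KO BMDMs (orange), with bars for the 95% interval, filled points for an adjusted p under 0.05 and dotted lines at 0.75 in either direction. Ass1 lies near 2 in both genotypes, whereas Arg2, Gch1 and Qdpr lie below the lower dotted line in both.

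Counted together at 3 h, 4 of the 10 genes passed the test between genotypes (Nos2, Ass1, Asl and Gch1), all higher in AclyM-KO, where 8.5% of the 11904 genes tested passed in that direction and 15.4% in either. None of the 10 was called changed, against 2.01% of all genes. The libraries of the genotypes did not overlap for 6 of the 10 genes, all higher, a pattern seen in that direction for 15.3% of all genes. The median log2 fold change was 0.22 over the 10 genes and -0.01 over all genes. At 24 h, Nos2, Slc7a2, Ass1 and Gch1 passed as higher and Pts as lower, against 8.32% and 5.57% of all genes and 13.9% in either direction, and Nos2 was called changed, against 1.38%. Libraries did not overlap for 6 genes at 24 h, 5 higher and 1 lower, against 18.2% and 14.9% of all genes, and the median log2 fold change was 0.16, against 0.01 over all genes.

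The difference between the genotype effects at the 2 times passed the test for Nos2 and Slc7a2, which had larger effects at 24 h, and for Qdpr, where it was negative. Of all genes 9.53% passed, 4.86% with a positive and 4.66% with a negative difference. Between 3 h and 24 h in control, 7 of the 10 genes passed the test and 5 were called changed, against 74.9% and 40.4% of all genes. The changed genes were Ass1 upward and Arg2, Slc7a2, Gch1 and Qdpr downward, where 20.9% of all genes were changed upward and 19.5% downward. In AclyM-KO BMDMs 9 passed and 5 were called changed, against 75.7% and 41.9% of all genes. These were Nos2 and Ass1 upward and Arg2, Gch1 and Qdpr downward, against 21.9% and 20% of all genes. The numbers called with time are thus near the share over all genes. Scaling by total counts alone raised the values of all 10 genes with time, as it raised the median of all genes to 0.32 in control and 0.29 in AclyM-KO. Under it the log2 fold change of Nos2 in control was 0.64, that of Asl was 0.77 in control, past the fold threshold, and 0.65 in AclyM-KO, and those of Pts and Spr in AclyM-KO were both -0.44. The control libraries at each time enter both the genotype and the time comparisons, and so do the AclyM-KO libraries, so these comparisons share samples.

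Per transcript length, in RPKM, counts scaled by library size and transcript length, the order of the levels differed between the groups. In control BMDMs at 3 h, Nos2 stood at 55.0 ± 3.33 RPKM (SD, n = 3), Slc7a2 at 29.4 ± 1.70, Gch1 at 27.6 ± 1.40, Qdpr at 18.8 ± 1.10, Pts at 8.65 ± 1.22, Asl at 6.75 ± 0.48, Ass1 at 3.87 ± 0.41, Spr at 2.68 ± 0.25, Arg2 at 2.12 ± 0.33 and Arg1 at 0.220 ± 0.016. Slc7a2 and Gch1 did not differ beyond their spread, and the place of Slc7a2 is uncertain because its 2 listed transcripts have the same counts but lengths of 3677 and 7910 bases, and the longer would give 13.7 RPKM. In AclyM-KO BMDMs at 24 h, Nos2 stood at 132.5 ± 6.86 RPKM, followed by Slc7a2 at 22.7 ± 0.71, Ass1 at 21.8 ± 0.57, Gch1 at 16.6 ± 1.04, Asl at 10.4 ± 0.17, Qdpr at 7.30 ± 1.17, Pts at 5.93 ± 1.00, Spr at 2.11 ± 0.59, Arg2 at 0.873 ± 0.287 and Arg1 at 0.139 ± 0.052. These groups differ in both genotype and time. Within control, Ass1 was below Gch1 and Qdpr at 3 h and above them at 24 h, where Ass1 stood at 16.8 ± 0.65 RPKM, Gch1 at 14.5 ± 0.90 and Qdpr at 8.63 ± 0.44. Within AclyM-KO the order turned likewise, from 5.54 ± 0.39 RPKM for Ass1, 31.9 ± 1.36 for Gch1 and 21.6 ± 0.64 for Qdpr at 3 h. Nos2 was first and Arg1 last in all 4 groups. At 24 h in AclyM-KO, neither Slc7a2 and Ass1 nor Qdpr and Pts differed beyond their spread. The longer Slc7a2 transcript would give 10.5 RPKM in that group, below Ass1 and Gch1 and near Asl, so the place of Slc7a2 there is uncertain too.

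Other genes of the pathway were taken from 5 lists of 59 genes, of which 43 passed the filter on low counts. Beside the counts of all 5 lists, 15.4% of all genes passed the test between genotypes in either direction at 3 h and 13.9% at 24 h. Among 16 tested genes of polyamine and ornithine use, downstream of arginase, 2 were higher and 1 lower in AclyM-KO at 3 h by the test, and 1 was higher at 24 h, with medians of 0.12 and -0.10 on the log2 scale. Smox, spermine oxidase, named after its values were seen, was at once the 1 that was lower at 3 h (log2 fold change -0.41 ± 0.09, adjusted p = 0.00125) and the 1 that was higher at 24 h (0.27 ± 0.08, adjusted p = 0.0149), and the difference between these effects passed the test (0.68 ± 0.12, adjusted p = 1.69e-04). Odc1, ornithine decarboxylase, which opens polyamine synthesis, was at 53.6 CPM in control and 51.7 CPM in AclyM-KO at 3 h and at 9.09 CPM and 8.58 CPM at 24 h, and did not pass the test between genotypes (adjusted p = 0.72 and 0.676).

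Among 7 tested genes of arginine supply and the urea cycle, 2 were higher and 2 lower at 3 h, and 1 was higher and 2 lower at 24 h. The higher ones, named after their values were seen, were Slc3a2, the heavy chain shared by several amino acid transporters, at both times (0.37 ± 0.05 and 0.49 ± 0.05, adjusted p = 1.07e-05 and 9.61e-08), and Slc7a1, the cationic amino acid transporter CAT1, at 3 h (0.65 ± 0.14, adjusted p = 0.00941), where its AclyM-KO libraries spread widely (47.6 ± 10.9 CPM, SD, n = 3, against 30.5 ± 1.182 in control). The lower ones at both times were Slc7a7, which encodes a cationic amino acid exchanger that pairs with Slc3a2 (-0.42 ± 0.09 and -0.52 ± 0.10, adjusted p = 0.00107 and 2.89e-04), and Gatm, which uses arginine to begin creatine synthesis (-0.29 ± 0.08 and -0.73 ± 0.12, adjusted p = 0.00902 and 4.67e-05). The median log2 fold changes of this list were 0.16 and 0.04. Cps1 and Nags of the urea cycle held 0 counts over all libraries and Otc held 2, and none of these 3 was tested.

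Of 5 genes of pterin recycling and carbonyl reduction, 3 were tested and none passed edgeR's test between genotypes at either time. Akr1b3, an aldose reductase that can take part in an alternative route to tetrahydrobiopterin, stood at 5.08 ± 0.35 CPM in control and 6.74 ± 0.59 CPM in AclyM-KO at 3 h, and at 3.71 ± 0.12 CPM and 4.14 ± 1.00 CPM at 24 h (SD, n = 3). Its log2 fold change was 0.41 ± 0.15 at 3 h (adjusted p = 0.0628) and 0.16 ± 0.15 at 24 h (adjusted p = 0.535), and it was named after its values were seen. The median log2 fold change of the list was 0.25 at 3 h and -0.03 at 24 h. Gchfr, the feedback regulator of GTP cyclohydrolase, held 5 counts over all libraries and was not tested.

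**Figure D4:**
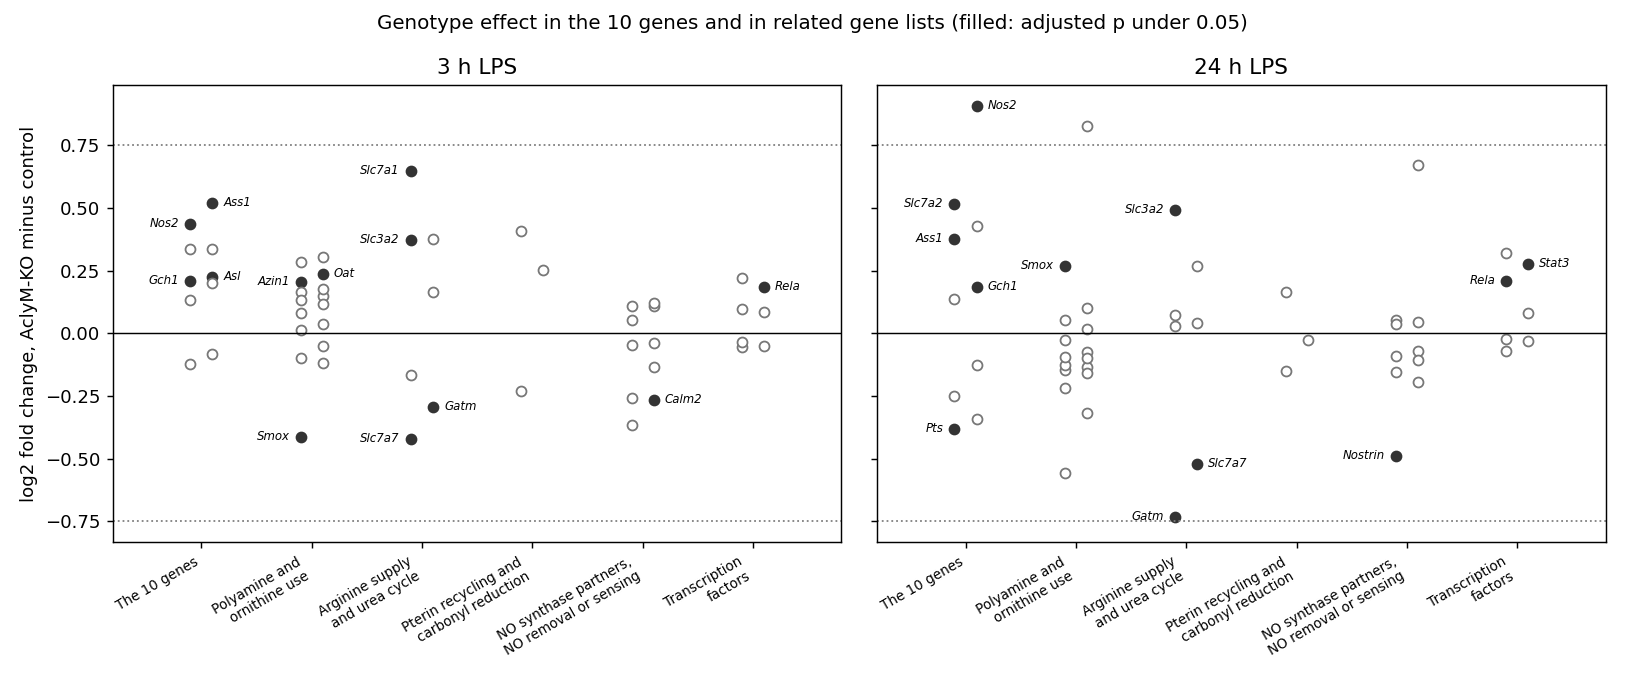
Log2 fold change of AclyM-KO against control at 3 h (left) and 24 h (right) of LPS for the 10 genes and for the tested genes of the 5 related lists, with 1 point per gene, filled and named where the adjusted p was under 0.05, and dotted lines at 0.75 in either direction. Among the genes shown, Nos2 at 24 h is the only filled point beyond a dotted line.

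Among 10 tested partners of nitric oxide synthase and genes of nitric oxide removal or sensing, 1 was lower at 3 h and 1 lower at 24 h, with medians of -0.04 and -0.08. Hsp90ab1, a chaperone of the synthase, was at 360 CPM in control and 349 CPM in AclyM-KO at 3 h and at 705 CPM and 662 CPM at 24 h (adjusted p = 0.574 and 0.215). Calm2, 1 of the 3 calmodulin genes, was lower at 3 h (-0.27 ± 0.07, adjusted p = 0.0057), and Nostrin, named for its trafficking role with the endothelial synthase, was lower at 24 h (-0.49 ± 0.13, adjusted p = 0.0125). Of 7 transcription factors with textbook roles at Nos2 or Arg1, all tested, 1 was higher and 0 lower at 3 h and 2 were higher and 0 lower at 24 h, with median log2 fold changes of 0.09 and 0.08. Rela, an NF-kappa B subunit, was higher at both times (0.18 ± 0.06 and 0.21 ± 0.06, adjusted p = 0.026 and 0.0163), and Stat3 was higher at 24 h (0.27 ± 0.05, adjusted p = 1.93e-04). Irf1, an interferon-induced activator of Nos2, did not pass the test at either time (-0.06 ± 0.05 and -0.02 ± 0.05, adjusted p = 0.505 and 0.809).

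The genes whose log2 levels followed Nos2 most closely over the 12 libraries were Eng, Tmem132a, Pkp4, Camsap1 and Uba1, with Pearson correlations of 0.977, 0.970, 0.961, 0.956 and 0.949 among 6301 genes with a mean of at least 10 CPM. Those closest to Gch1 were Tmem50b, Ptpn11, Gm10865, Ripk2 and Arid5a, with 0.995, 0.991, 0.991, 0.991 and 0.991, and Gch1 differed mainly between the times. For Arg1 the closest, H13, Dpm2, Il3ra, Ntm and Ttyh3, reached 0.752, 0.75, 0.653, 0.653 and 0.629 among 6302 genes, at 2 to 14 Arg1 counts per library. These correlations are descriptions across libraries that fall into 4 groups, and the points share their group, library and depth.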

How the data were processed

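The authors made strand-specific mRNA libraries, sequenced them, aligned reads to mm10 with STAR 2.5.2b (CASAVA 1.8.2 is also named in the submitters' processing notes), filtered them with SAMtools and used HOMER to count tags on each RefSeq transcript. The authors deposited unnormalized counts, whole numbers for 35745 transcripts, and 0 columns were unused. The RPKM values given here were computed from the counts and transcript lengths. Symbols were found for 35440 transcripts in RefSeq and 35628 with GENCODE. The 117 others held 1.13% of counts and stayed in the fit.

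Samples were grouped by their labels. Where a symbol had several transcripts, the 1 with the most counts stood for it. In R 4.3.3, edgeR 4.0.16 (TMM, filterByExpr, robust quasi-likelihood fit) tested 19621 transcripts of 11904 symbols in 12 libraries of 4 groups. The thresholds follow the study's methods. The interaction was called on the adjusted p alone. DESeq2 1.42.0, RLE size factors (computed by edgeR), total counts alone, no filter, 13 libraries, leaving out each library, a replicate block, 1 transcript per gene, only the groups compared and no fold threshold were alternatives. The fit was tried on simulated counts with 200 changed transcripts, all changed in the AclyM-KO 3 h group only, and the same spread for every transcript. That trial did not cover the 24 h or interaction calls or changed transcripts with few counts, and its outcome is not given here. Replicates within a group differed beyond counting noise (chi-square per degree of freedom 2.66 to 11.9). The 10 genes and the lists were chosen with earlier results of these data known, by name. The rule for genes named beyond the 10 took those of the lists changed in a genotype comparison or the interaction, and the 5 closest in pattern to Nos2, Arg1 and Gch1. Some genes of the lists are not reported here and are left out of their counts. Others from the lists were named after their values were seen. Of the 10 genes, 5 were in the RefSeq promoter table, and Gch1 and Qdpr are shown.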

Additional observations from a re-analysis of the deposited data

Results flagged for a closer look

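Among the 4 control libraries after 24 h of LPS, replicate 1 stood apart from the others for 7 of the 10 genes, with a gap to the nearest library divided by the range, in CPM by total counts, above Dixon's critical value for 4 samples. The ratio was 0.884 for Nos2, 0.923 for Ass1, 0.970 for Asl, 0.955 for Slc7a2, 0.946 for Pts, 0.895 for Spr and 0.929 for Qdpr. Chance alone gives such a ratio in about 1 in 20 groups of like samples, and 10 were tested. In replicate 1 a single count stood for 29.0 CPM, so that rate does not hold for it. The 10 tests also shared that library and are not separate evidence. This library held 34467 counts, of which 19 were Nos2 (551 CPM), 8 Slc7a2 (232 CPM), 1 Gch1, 1 Qdpr and 0 each of the other 6 genes, and a count of 0 here allows up to 3 counts.

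The genotype effect differed between 3 h and 24 h of LPS by the interaction test for 3 genes. The difference was 0.47 for Nos2, 0.60 for Slc7a2 and -0.45 for Qdpr on the log2 scale, and for Qdpr it did not pass the test in 5 of 19 alternative fits.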

How the results depend on the processing

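By the adjusted p alone, 4, 5 and 9 of the 10 genes were called at 3 h, at 24 h and with time in AclyM-KO, where 0, 1 and 5 were with the fold threshold. Leaving out 1 library gave 0 at 3 h, 1 at 24 h, 5 with time in control, 5 to 7 with time in AclyM-KO and 2 to 4 for the interaction. Deviations of same-numbered libraries had correlations of -0.129 to 0.176 over 15 pairs, with a median of 0.04. Those of other pairs ran from -0.180 to 0.183 over 39 pairs, with a median of -0.03. Many of the 15 pairs joined different genotypes, so these values cannot decide whether the numbers pair the samples. With the number as a replicate block, the called counts were 0, 1, 5 and 5, and 2 for the interaction. The interaction lost Qdpr (-0.38, adjusted p = 0.0909). The adjusted p of Asl at 3 h and of Gch1 and Pts at 24 h became 0.0557, 0.0903 and 0.139. Control 24 h replicate 4 was the only library with its number, so the block absorbed it and the block fit in effect left it out. Total counts alone, an alternative chosen after seeing the data, moved the median of all genes with time to 0.32 in control and 0.29 in AclyM-KO, from 0.04 in both. There Slc7a2 and Gch1 in control (-0.62 and -0.65) and Gch1 in AclyM-KO (-0.70) fell short of the fold threshold, Asl in control (0.77) passed it, Nos2 in control moved from 0.36 to 0.64, and Pts and Spr in control turned to 0.11 and 0.05. Arg1 turned with time in control to 0.030 by DESeq2 and 0.78 with the block. Over fits without 1 library, values that turned ranged, for Arg1, from -0.0032 to 0.73 at 3 h, -1.32 to 0.36 at 24 h, -1.65 to 0.026 for the interaction and -1.005 to 0.68 with time in control, for Spr at 24 h from -0.33 to 0.074, and for the Gch1 interaction from -0.079 to 0.0066. None of the values that turned passed the test, and the cause was not tested.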
